A study of Mus musculus with 16 samples.

Results

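Small structural RNAs and the genes that host them were followed in hematopoietic stem cells (HSCs) of C57BL/6J mice treated with palbociclib, rapamycin, both or neither. The 28 genes are those whose symbol begins with Snord, Snora, Scarna or Snhg, together with Rn7sk, Rmrp, Rpph1, Terc and Gas5, that reached a summed count of 100 over all libraries, out of 169 genes with such a symbol and 50686 genes in the files. By symbol they fell into 4 Snord, 7 Snora and 2 Scarna genes, 13 host genes (12 Snhg genes and Gas5) and 2 RNAs outside these families (Rn7sk and Rpph1). The genes were chosen by their summed count over the 16 libraries, so their presence is a description, and the drug comparisons were proposed with earlier results in view. Nearest to the minimum lay Snora78 (107), Snora41 (116), Snhg14 (127), Rpph1 (129) and Snord7 (131) on the inside, and Snord17 (97), Snora70 (96), Snhg11 (71), Snord22 (64) and Snora31 (63) on the outside.

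The 16 libraries formed 4 groups of 4: palbociclib at 30.4 mg/kg plus rapamycin at 6.4 mg/kg (labelled PD+RAP), palbociclib alone (PD), rapamycin alone (RAP) and vehicle. Every mouse received the same solvent, 20% DMSO and 40% PEG 400 in PBS, in 100 µL injections into the peritoneum each 48 h over 85 days. Palbociclib inhibits the cyclin-dependent kinases CDK4 and CDK6, and rapamycin inhibits the growth kinase mTOR. For each library 10000 HSCs in G0/1 were sorted from marrow depleted of lineage-positive cells, and total RNA was made into a library with a low-input kit. Age, cDNA priming and whether the 4 libraries of a group stem from different mice are not in the labels. The p-values are set against library-to-library spread, part of which may be technical.

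Small nucleolar RNAs guide chemical modification of other RNAs. The box C/D class (Snord genes) directs methylation of ribose and the box H/ACA class (Snora genes) directs conversion of uridine to pseudouridine, mostly in ribosomal RNA, while the small Cajal body RNAs (Scarna genes) do the same for spliceosomal RNAs. In mammals most of them are cut from introns of host genes. Snhg genes and Gas5 are hosts whose spliced RNA codes for no known protein, and several of these RNAs are degraded in the cytoplasm when ribosomes translate them. Rn7sk (7SK RNA), made by RNA polymerase III, holds the elongation kinase P-TEFb (CDK9 with cyclin T) in an inactive particle. Rpph1 and Rmrp are the RNA parts of RNase P and RNase MRP, and Terc is the template RNA of telomerase.

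The RNAs that the results turn on are shown as DNA letters of the gene strand, as GENCODE M21 (build GRCm38) annotates them. Rn7sk is printed because it was the one gene of the 28 that passed the test. The gene spans 331 bases (chr9:78175303-78175633, minus strand), of which the first 110 are shown; the capitals mark the GATC letters that begin at positions 13, 42 and 64. GATC reads the same on both strands, and in human 7SK a GATC repeat near the 5′ end binds HEXIM1, the protein that inhibits P-TEFb. Of 138029 annotated transcripts, 0.427% held as many in their first 110 bases.
Rn7sk, bases 1 to 110, chr9:78175524-78175633, minus strand: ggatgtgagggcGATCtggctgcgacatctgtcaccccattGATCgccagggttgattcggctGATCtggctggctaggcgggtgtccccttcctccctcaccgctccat
Of the Snord RNAs, 2 follow because they show how little length there is to count reads on. The capitals mark the first TGATGA of the 5′ part (box C) and the last CTGA of the last 15 bases (box D), searched on the gene strand.
Snord104, chr11:106500993-106501062, plus strand: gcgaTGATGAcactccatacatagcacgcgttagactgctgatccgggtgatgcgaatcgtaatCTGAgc
Snord7, chr11:83294304-83294400, plus strand: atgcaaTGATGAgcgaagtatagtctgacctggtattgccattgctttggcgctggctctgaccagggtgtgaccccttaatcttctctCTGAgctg
Snora57, the Snora gene with the highest mean level, is shown with the ACA of its last 8 bases in capitals.
Snora57, chr19:8888538-8888685, minus strand: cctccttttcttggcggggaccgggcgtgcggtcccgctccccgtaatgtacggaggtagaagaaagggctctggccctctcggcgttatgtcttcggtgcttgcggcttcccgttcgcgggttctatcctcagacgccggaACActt
Both boxes were found in 4 of 4 Snord RNAs, against 5.38% of 5872 annotated transcripts of 60 to 150 bases, and the ACA was found in 7 of 7 Snora RNAs, against 19.1% of 7243 transcripts of 60 to 210 bases. The boxes belong to the classes: of 95 Snord genes under the count minimum 73.7% held box C and 92.6% box D. Of 35 such Snora genes 94.3% held the ACA. A run of 6 A, to which an oligo-dT primer could pair, was found in 0 of the 15 small RNAs among the 28 genes. That says only that these letters are not in the annotated sequence.

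Total counts ran from 10133860 to 15328830 per library. The 10 genes listed for HSC identity and the sort (Procr, Slamf1, Kit, Mecom and Cd48 among them) had counts in every library. Cd48 had 6.63 to 63.4 CPM, so counts in all 10 do not by themselves show HSC identity. Marker genes of other cells were present too: 10 neutrophil genes held 0.769% to 8.97% of a library's counts, and 8 B cell genes held 0.00545% to 3.19%. Vehicle 3, rapamycin 3 and vehicle 4 had the lowest median correlations with the other libraries, and the values of Rn7sk, Rpph1 and Snhg5 are given with and without them. In bulk RNA, fewer cells of a type and less RNA per cell cannot be told apart.

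The host genes carried nearly all of the signal. Together the 28 genes took 0.0717% to 0.146% of a library's counts, and the 13 hosts held 97.6% of those counts, against 0.990% for Rn7sk with Rpph1, 0.828% for the Snora genes, 0.420% for the Snord genes and 0.203% for the Scarna genes. Gas5 alone held 53.5%. By level per length its mean over 16 libraries was 1258 TPM, the length-normalised transcript abundance, followed by Snhg20 (211.8 TPM), Snhg3 (173.3 TPM), Snhg15 (157.1 TPM) and then a small RNA, Snord104 (129.9 TPM). The lowest means were those of Snhg14 (1.17 TPM), Snhg18 (1.78 TPM) and Rpph1 (2.97 TPM). Neighbours below Gas5 in this order overlapped in their libraries.

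The TPM of the shortest RNAs rests on few reads. Dividing counts by TPM within each library gave, for the 17 genes of the 28 with a single transcript, an estimated length 46.5 to 49.7 bases (median 49) under the annotated one. Fitted in each library over 338 to 483 longer genes with a single transcript, the difference was -0.0011 to 45.7 bases, so the length behind the deposited TPM is an estimate. By it Snord104, 70 bases long, was divided by 21, which makes its TPM 3.33 times what its full length would give, while for Rn7sk, 331 bases long, the factor was 1.17. Snord104 had 11 to 44 counts in a library, against 4001 to 10298 for Gas5.

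**Figure D1:**
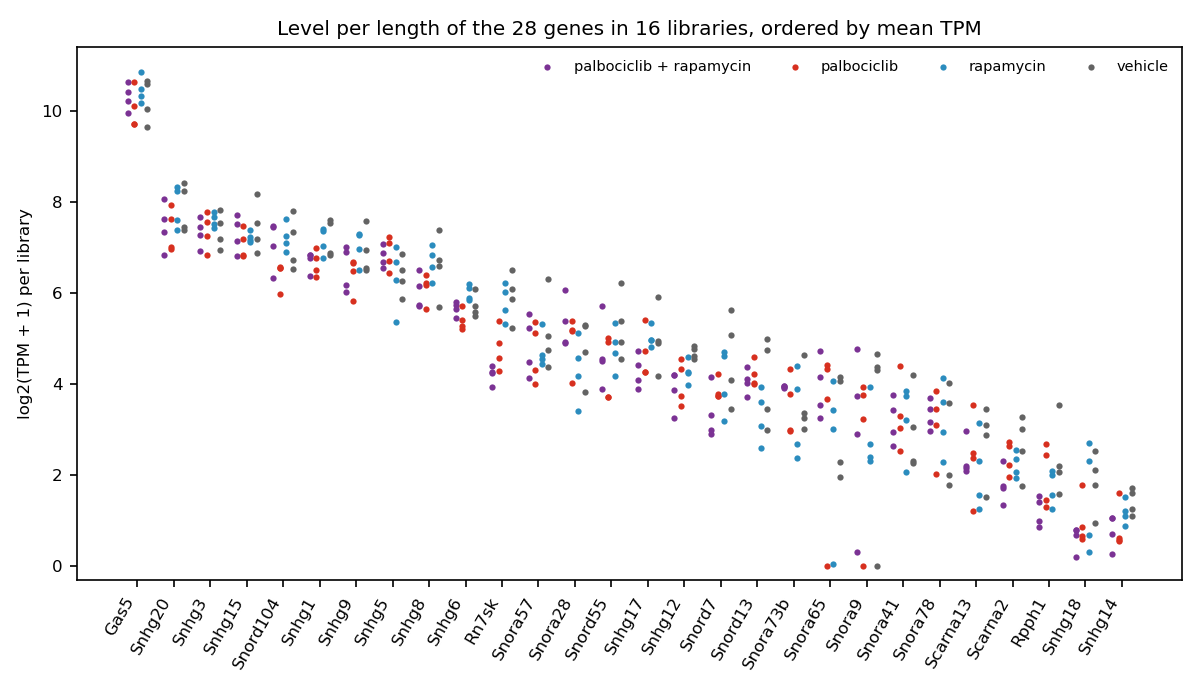
Levels per length of the 28 genes in the 16 libraries, as log2(TPM + 1), ordered by mean TPM from left to right. Each point is 1 library, coloured by group. Gas5 stands above all others, and the libraries of most small RNAs spread over more than 1 unit.

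Of the other 141 genes with such symbols, 37 had no count in any library. All 141 together held 1593 counts, against 197481 for the 28. Rmrp had 1 count, in palbociclib 1, and 0 in the other 15 libraries, where a count of 0 allows up to 3 counts, or 0.1945 to 0.3305 CPM over the 16 libraries, the TMM-scaled read count (counting error only). Terc had 29 counts. They were 1, 7, 1 and 1 in the palbociclib plus rapamycin libraries, 2, 0, 1 and 2 with palbociclib, 3, 1, 0 and 1 with rapamycin, and 0, 0, 6 and 3 with vehicle. No difference in either RNA was detectable at this depth.

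Rn7sk fell where palbociclib was given. With both drugs it stood at 4.27, 3.81, 3.70 and 4.27 CPM, scaled by TMM, in libraries 1 to 4. Palbociclib alone gave 10.4, 4.68, 4.66 and 6.49 CPM, rapamycin alone gave 9.87, 17.5, 14.0 and 8.85 CPM, and vehicle gave 17.9, 17.0, 8.43 and 16.4 CPM. The 4 libraries with both drugs were the lowest of all 16 and close together. Of the palbociclib libraries, only library 1 reached into the range of the rapamycin and vehicle libraries, while vehicle 3 lay far under the other 3 vehicle libraries.

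Averaged over rapamycin, the 8 libraries with palbociclib had 5.29 ± 2.25 CPM, against 13.7 ± 4.07 CPM in the 8 without it (SD, n = 8 each). The log2 fold change was -1.41 ± 0.26 (SE), a 2.66-fold lower level, with an adjusted p of 0.0252 in edgeR's quasi-likelihood test over all 15308 genes tested. It was the 1 gene called among the 25 that passed the filter on low counts, while 0.32% of all genes tested were called in this comparison (0.209% as lower). Of the 28 genes, Rpph1, Snora41 and Snora78 did not pass that filter.

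The single contrasts of Rn7sk ran in the same direction without passing the test. In each contrast 0 of the 25 genes were called, while the share of all genes called was 0% for both drugs over vehicle, 0.0457% for both drugs over rapamycin, 0% for both drugs over palbociclib and 0% for palbociclib over vehicle. Both drugs over vehicle gave -1.89 ± 0.37 (adjusted p = 0.206), both drugs over rapamycin gave -1.64 ± 0.37 (adjusted p = 0.133) and palbociclib over vehicle gave -1.18 ± 0.36 (adjusted p = 0.328), all as log2 fold changes with SE from edgeR. Rapamycin over vehicle was -0.25 ± 0.36 (adjusted p = 0.957), both drugs over palbociclib was -0.71 ± 0.36 (adjusted p = 1.00), and the drug-by-drug interaction was -0.46 ± 0.51 (adjusted p = 0.992). By the counts assigned to Rn7sk alone, libraries with both drugs did not overlap those of any other group. Groups without overlap in the lower direction were found for 2.18% of all genes for both drugs over vehicle, 3.87% for both drugs over rapamycin and 1.61% for both drugs over palbociclib.

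**Figure D2:**
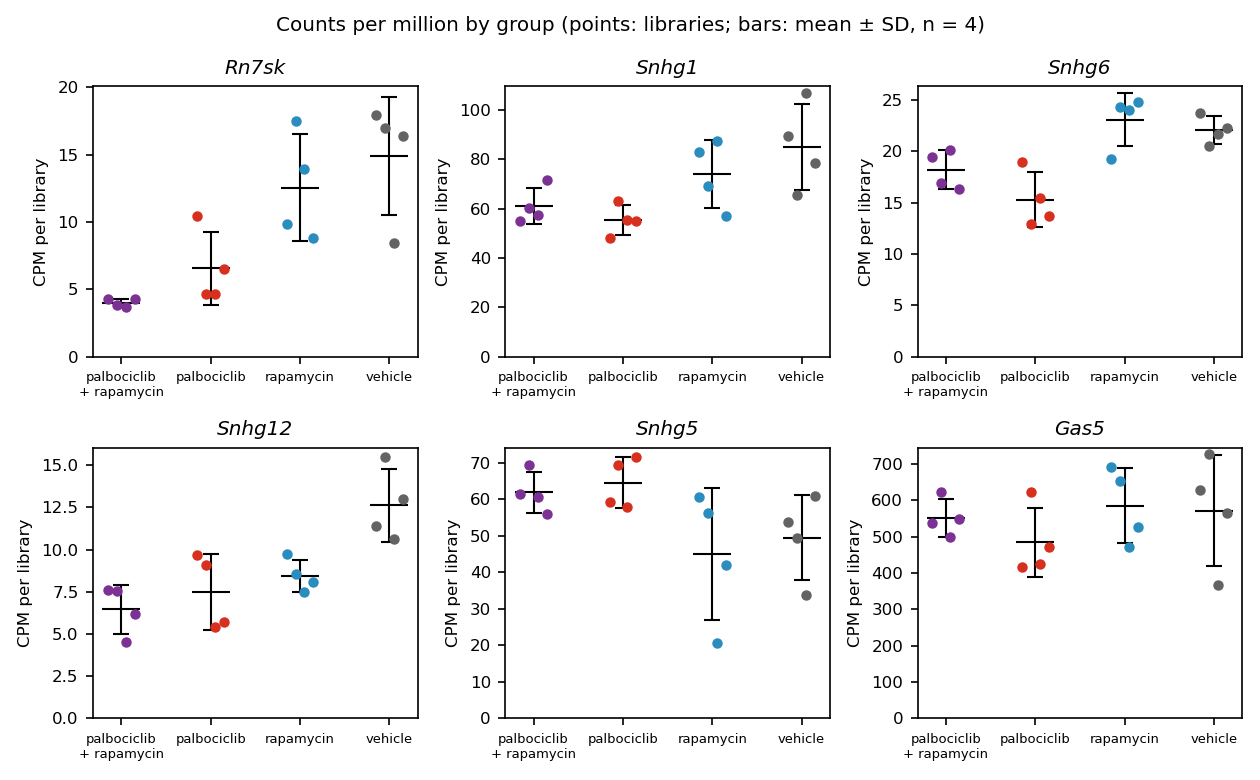
CPM of Rn7sk and 5 host genes in each library, by group; bars give the mean ± SD of 4 libraries, and every axis starts at 0. Rn7sk lies between 3.70 and 4.27 CPM with both drugs and between 8.43 and 17.9 CPM with vehicle, while Gas5 overlaps in all groups.

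The call of Rn7sk depended on single libraries although its size did not. Leaving out 1 library at a time gave log2 fold changes of -1.57 to -1.31. The adjusted p passed 0.05 without palbociclib plus rapamycin 1 (0.0557), 2 (0.0514), 3 (0.0814) or 4 (0.0741), palbociclib 3 (0.0844) or 4 (0.0729), rapamycin 2 (0.0548) or vehicle 1 (0.0587), and also in limma-voom with all libraries (0.0685). The call held without vehicle 3, rapamycin 3 and vehicle 4 together (-1.49, adjusted p = 0.045, a setting added after the data were seen), and DESeq2 gave an adjusted p of 2.76e-05. DESeq2 also called Rn7sk for both drugs over vehicle (adjusted p = 0.000408) and over rapamycin (adjusted p = 0.00289).

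**Figure D3:**
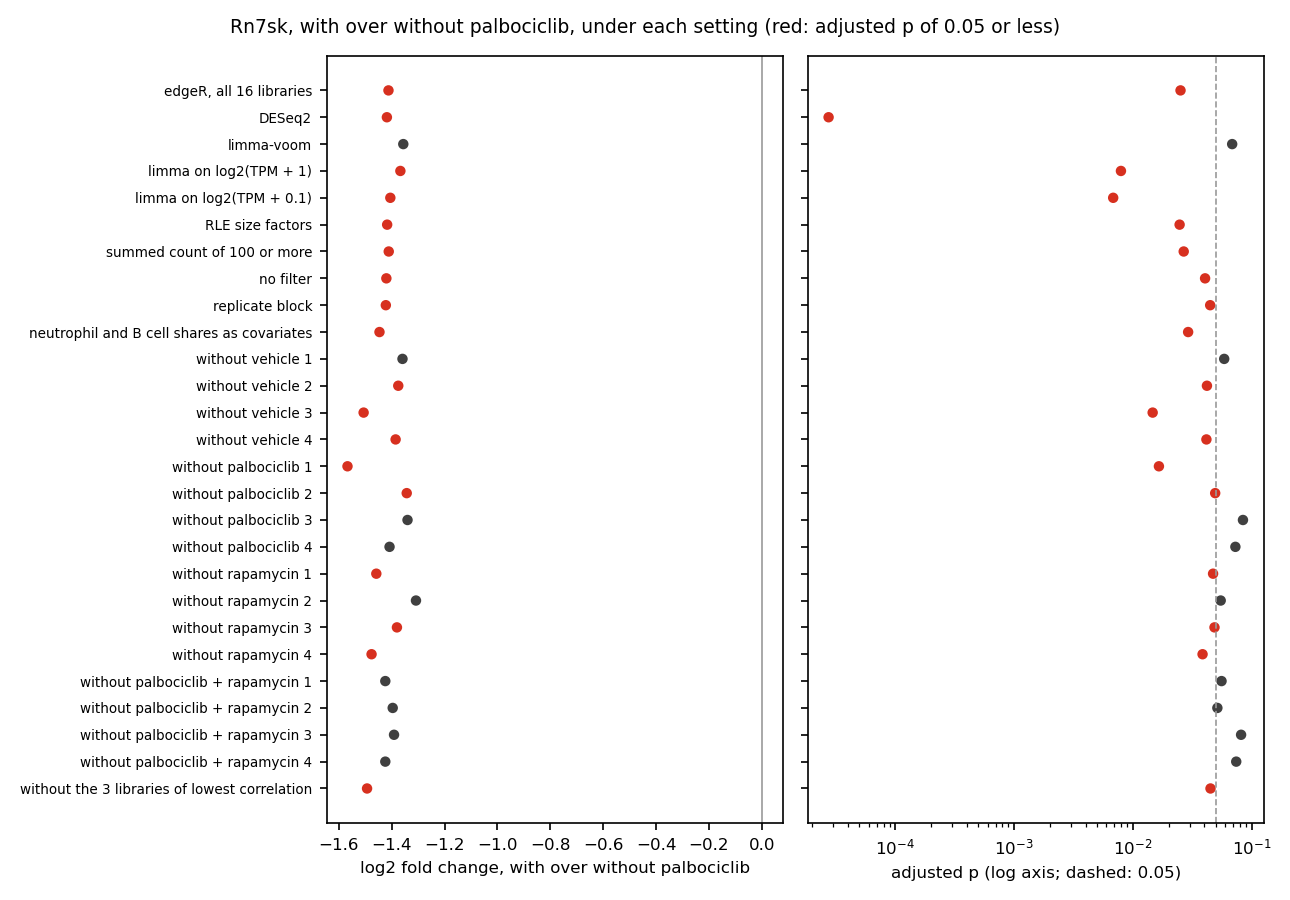
Rn7sk, with over without palbociclib averaged over rapamycin, under each setting: log2 fold change on the left and adjusted p on a log axis on the right, with red points at 0.05 or less. The fold changes stay between -1.57 and -1.31, while the adjusted p crosses 0.05 for 8 of the 16 libraries left out and in limma-voom.

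Several measurements bear on what was counted as Rn7sk. Of its 25-base words, 75.6% also occur in 46 other annotated genes, so its counts are uncertain as those of a single gene. Those 46 genes held 135 counts in all, of which 92 were in Gm26102, against 1826 for Rn7sk. With their counts added the group means were 5.06 CPM with both drugs, 7.07 CPM with palbociclib, 13.15 CPM with rapamycin and 15.6 CPM with vehicle. Those genes had 8, 24, 7 and 13 counts with both drugs and 14, 2, 3 and 3 with palbociclib, in libraries 1 to 4. Their group totals were 52 and 22, against 33 with rapamycin and 28 with vehicle. With these counts added, the libraries with both drugs and those with palbociclib alone overlapped.

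Markers of other cells and other RNA classes moved in part with the same groups. The summed level of 8 erythroid genes was 120.0 to 430.0 CPM with both drugs, 116.8 to 1235 CPM with palbociclib, 609.9 to 1839 CPM with rapamycin and 266.4 to 1594 CPM with vehicle. In palbociclib averaged over rapamycin 7 of these 8 had a negative log2 fold change and 0 were called, and their part in the Rn7sk result was not tested. Of the 10 genes listed for HSC identity and the sort, Cd48 included, 8 had a negative value in the same comparison (median -0.28), with 0 called. The 8 B cell genes ran from 52.55 to 8240 CPM with both drugs, 321.7 to 11610 CPM with palbociclib, 86.2 to 1478 CPM with rapamycin and 1718 to 35690 CPM with vehicle, and with the neutrophil and B cell shares as covariates the Rn7sk change was -1.45 (adjusted p = 0.0292). The snRNA genes, which also yield RNAs without a poly(A) tail, summed to 13.3 to 18.2 CPM with both drugs, 10.8 to 18.3 CPM with palbociclib, 15.96 to 22.3 CPM with rapamycin and 15.5 to 28.1 CPM with vehicle. The snoRNA genes outside the 28 overlapped in all groups (28.3 to 30.8 CPM with both drugs, against 21.9 to 40.1 CPM with vehicle).

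Rpph1, the RNA of RNase P, had 2 to 12 counts in 15 libraries and 36 in vehicle 3. With both drugs it had 0.396, 0.204, 0.411 and 0.182 CPM, against 0.689, 0.780, 2.33 and 0.551 CPM with vehicle. These 2 groups did not overlap, as in 2.18% of all genes tested, but Rpph1 was too low for the filter. In a fit over genes with a summed count of at least 100, its log2 fold change was -1.85 ± 0.83 for both drugs over vehicle (adjusted p = 0.443, edgeR). The difference was smaller without vehicle 3. The means were 0.298 CPM with both drugs and 1.09 CPM with vehicle, and 0.673 CPM with vehicle when vehicle 3 was left out. Over the same genes but without vehicle 3, a setting added after the data were seen, the log2 fold change was -1.16 ± 0.84 (adjusted p = 0.652), and without vehicle 3, vehicle 4 and rapamycin 3 it was -1.28 ± 0.96 (adjusted p = 0.619, edgeR). Ccnb1ip1 shares 70.8% of the 25-base words of Rpph1 but held 0 counts in all, against 129 for Rpph1, so no counts went to Ccnb1ip1. How reads of the shared part were assigned is not stated.

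The correlation of Rn7sk and Rpph1 had opposite signs as levels and as deviations from group means. Over 16 libraries Pearson's r of log2 CPM was 0.27 (permutation p = 0.315) and Spearman's rho 0.36 (permutation p = 0.173). Without the 2 libraries farthest from the median of Rn7sk, r was 0.13. As deviations from the group means, r was -0.51 (permutation p = 0.0431, adjusted over the 3 pairs 0.129) and rho -0.48 (permutation p = 0.0645), and r was -0.14 without palbociclib 1 and vehicle 3, the libraries farthest from the median of Rn7sk. Rn7sk with Terc gave r = -0.23 (permutation p = 0.39) and rho = -0.37 (permutation p = 0.153), and Rpph1 with Terc gave r = -0.04 (permutation p = 0.885) and rho = -0.28 (permutation p = 0.284). Without the 2 farthest libraries these were r = -0.08 and r = -0.67. Adjusted over the 3 pairs, the p of Pearson's r on levels were 0.584, 0.584 and 0.885. Terc counts were mostly 0 to 3, and pairs with Rmrp were not computed.

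Most host genes had lower values with palbociclib, none past the test. Averaged over rapamycin, 12 of the 13 had a negative log2 fold change, against 51.7% of all genes tested, with a median of -0.45 against -0.02. At an unadjusted p under 0.05, 8 lay lower and 1 higher, against 6.83% and 6.85% of all genes. These were Snhg1, Snhg6, Snhg8, Snhg9, Snhg12, Snhg17, Snhg18 and Snhg20 on the lower side and Snhg5 on the higher. The smallest adjusted p of a host in edgeR was 0.127. Over all 25 genes tested, palbociclib over vehicle had 21 negative values, against 52.2% of all genes, and 6 lower at an unadjusted p under 0.05, against 5.03%. Both drugs over vehicle had 20 negative values, against 51.6%, and 6 lower at that p, against 5.45%. Both drugs over rapamycin had 3 lower at that p, against 4.25%. These comparisons share control libraries.

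Snhg1, which hosts a group of C/D snoRNAs in its introns, showed this with the smallest p of the hosts. It had 55.1, 60.3, 57.4 and 71.5 CPM with both drugs, 48.0, 63.2, 55.3 and 55.1 CPM with palbociclib, 83.0, 69.3, 87.3 and 57.0 CPM with rapamycin, and 89.6, 65.7, 106.8 and 78.7 CPM with vehicle. All 4 palbociclib libraries lay under all 4 vehicle libraries, as in 2.21% of all genes, while rapamycin 4 lay among the palbociclib values. The log2 fold change averaged over rapamycin was -0.45 ± 0.13 (adjusted p = 0.127, edgeR), and DESeq2 gave -0.46 (adjusted p = 0.0334).

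Snhg6, host of Snord87, had 19.5, 16.9, 20.1 and 16.4 CPM with both drugs, 19.0, 13.0, 15.5 and 13.7 CPM with palbociclib, 19.2, 24.3, 24.0 and 24.8 CPM with rapamycin, and 23.8, 20.5, 21.7 and 22.3 CPM with vehicle. Every library with palbociclib was below every vehicle library, and rapamycin 1 was the one library without palbociclib that reached into their range. The log2 fold change averaged over rapamycin was -0.44 ± 0.15 (adjusted p = 0.197, edgeR), and DESeq2 gave -0.44 (adjusted p = 0.0358). Of all genes, 2.21% had the palbociclib-alone libraries entirely below vehicle, and 2.18% had the both-drug libraries there. The share with both groups below at once was not computed.

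Snhg12 was the host with the smallest p for both drugs over vehicle. It had 7.60, 7.56, 4.52 and 6.18 CPM with both drugs, 9.70, 9.09, 5.40 and 5.72 CPM with palbociclib, 9.73, 8.55, 7.50 and 8.06 CPM with rapamycin, and 11.4, 15.5, 10.6 and 13.0 CPM with vehicle. All 3 drug groups lay below vehicle without overlap, as did 2.18% of all genes for both drugs, 2.21% for palbociclib and 1.5% for rapamycin. The share with all 3 below at once was not computed. Both drugs over vehicle gave -0.96 ± 0.32 (adjusted p = 0.304), palbociclib over vehicle -0.75 ± 0.32 (adjusted p = 0.475) and rapamycin over vehicle -0.58 ± 0.31 (adjusted p = 0.75), as log2 fold changes in edgeR.

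Snhg5, host of Snord50a and Snord50b, was the exception in direction. It had 61.4, 69.4, 60.6 and 56.1 CPM with both drugs, 59.2, 69.2, 57.7 and 71.6 CPM with palbociclib, 60.7, 56.3, 20.7 and 42.1 CPM with rapamycin, and 53.9, 49.3, 33.8 and 61.0 CPM with vehicle. The lowest values were those of rapamycin 3 and vehicle 3, which are among the libraries of lowest correlation. Averaged over rapamycin the log2 fold change was 0.42 ± 0.19 (adjusted p = 0.337, edgeR). It was 0.35 without vehicle 3, 0.31 without rapamycin 3 and 0.27 ± 0.13 without vehicle 3, vehicle 4 and rapamycin 3 (adjusted p = 0.293, edgeR, the last a setting added after the data were seen).

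Gas5, the best known of these hosts and a noncoding RNA linked to growth arrest, stayed within its own spread. It ran from 498.8 to 622.9 CPM with both drugs, from 417.7 to 623.3 CPM with palbociclib, from 472.7 to 691.2 CPM with rapamycin and from 366.6 to 727.7 CPM with vehicle. Its log2 fold change was -0.05 ± 0.20 for both drugs over vehicle, -0.24 ± 0.20 for palbociclib and 0.04 ± 0.20 for rapamycin over vehicle, with adjusted p of 0.969, 0.754 and 0.994 in edgeR. For palbociclib averaged over rapamycin it was -0.16, with a 95% interval of -0.44 to 0.11. Under the limma fits on TPM and without some single libraries the sign of such small values turned.

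The remaining hosts ranged widely in precision. Snhg18 had the largest fitted change, -1.77 ± 0.63 averaged over rapamycin (adjusted p = 0.221), with 0.182 to 0.822 CPM with both drugs, 0.581 to 2.56 CPM with palbociclib, 0.297 to 6.22 CPM with rapamycin and 1.21 to 4.91 CPM with vehicle. Snhg8 had -0.60 ± 0.21, Snhg9 -0.48 ± 0.21, Snhg17 -0.47 ± 0.21 and Snhg20 -0.41 ± 0.16, with adjusted p of 0.211 to 0.341; Snhg8 and Snhg9 were picked after their values were seen. Snhg3, Snhg15 and Snhg14 had -0.13 ± 0.12, -0.16 ± 0.15 and -0.53 ± 0.65, all in edgeR. Strand was not stated for the counting, so 3 of these are uncertain beside a gene on the opposite strand. Snhg9 shares 7.65% of its exon bases with Rps2, Snhg3 shares 71.5% with Gm17300, and Snhg14, at 127 counts, shares 6.91% with Ube3a, at 6512. The same limit applies to Snhg6, at 3794 counts, which shares 11.1% with Mcmdc2, at 40. It applies most to Snora73b, at 303 counts, which shares 100% with Gm17300, at 1511.

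**Figure D4:**
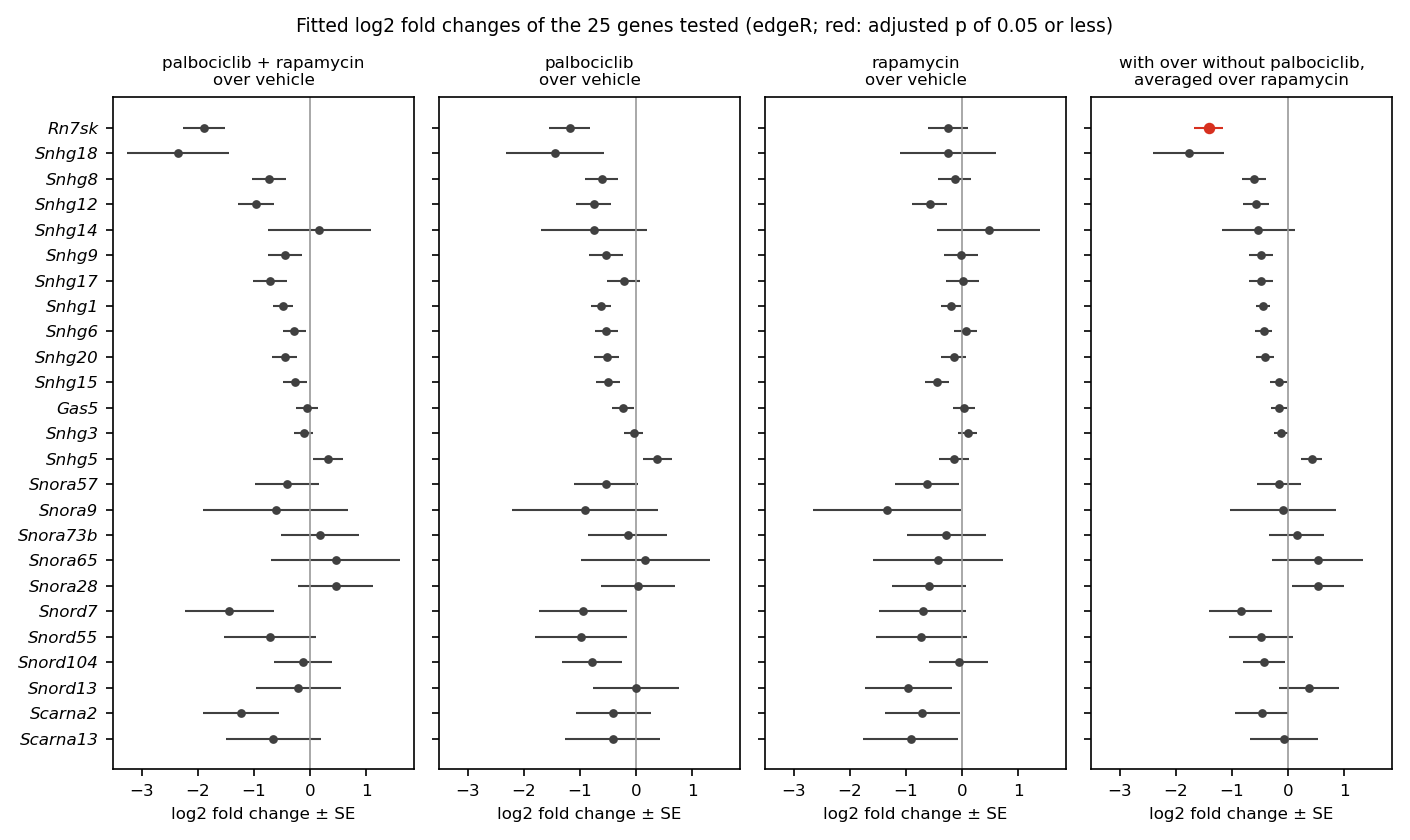
Fitted log2 fold changes of the 25 genes tested, with SE, in 4 comparisons, grouped into Rn7sk, hosts, Snora, Snord and Scarna genes from top to bottom. Rn7sk at -1.41 in the right panel is the red point, and the bars of most Snora, Snord and Scarna genes cross 0.

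No Snord gene passed a test. Snord104 had 1.54 to 2.79 CPM with both drugs, 1.17 to 1.78 CPM with palbociclib, 2.08 to 2.95 CPM with rapamycin and 1.56 to 3.41 CPM with vehicle. Its log2 fold change for palbociclib over vehicle was -0.78 ± 0.53 (adjusted p = 0.696). Snord7 had 0.237 to 0.613 CPM with both drugs, 0.485 to 0.618 CPM with palbociclib, 0.316 to 0.878 CPM with rapamycin and 0.433 to 1.88 CPM with vehicle, and both drugs over vehicle was -1.44 ± 0.79 (adjusted p = 0.573). Snord55 had -0.71 ± 0.81 for the same comparison. Snord13, whose RNA acts in the processing of 18S ribosomal RNA, had -0.21 ± 0.76, and its widest departure was -0.96 ± 0.77 for rapamycin over vehicle (adjusted p = 0.888). All 4 lay between 0.201 and 3.41 CPM in every library. The errors of these log2 fold changes, from edgeR, were 0.53 to 0.81.

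The Snora genes were as imprecise, and whether they shared a direction depended on the comparison. Of the 5 tested, 2 had a negative log2 fold change for palbociclib averaged over rapamycin, against 51.7% of all genes. All 5 were negative for rapamycin over vehicle, against 51% of all genes. For both drugs over rapamycin and both drugs over palbociclib 0 were negative, against 51.9% and 51%. None was called. Averaged over rapamycin, palbociclib gave 0.54 ± 0.47 for Snora28, 0.53 ± 0.81 for Snora65, 0.15 ± 0.49 for Snora73b, -0.09 ± 0.94 for Snora9 and -0.16 ± 0.40 for Snora57, with adjusted p of 0.674 or more in edgeR. Snora28 had 1.70 to 4.73 CPM with both drugs, 1.07 to 2.52 CPM with palbociclib, 0.537 to 2.23 CPM with rapamycin and 0.843 to 2.97 CPM with vehicle. Snora9 was at 0 counts in 3 libraries (palbociclib plus rapamycin 2, palbociclib 3 and vehicle 3) and Snora65 in 2 (palbociclib 1 and rapamycin 4), while neither exceeded 21 counts in any. In the fit over genes with at least 100 counts, Snora41 and Snora78 had 0.12 ± 0.60 and 0.07 ± 0.61. Scarna2 had 0.514 to 1.09 CPM with both drugs against 0.713 to 2.34 CPM with vehicle, -1.23 ± 0.68 (adjusted p = 0.571), and Scarna13 had -0.65 ± 0.85 (adjusted p = 0.868).

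The small RNAs and their hosts share sequence and place, and their values could be compared directly. All of the 25-base words of Snora28, Snora65 and Snora9 also occur in transcripts of their hosts Eif5, Rpl12 and Snhg15, in annotated exons that retain the snoRNA, so reads of a host transcript that keeps the intron cannot be told apart from the snoRNA. Counts of a small RNA were a small share of its host: the median over libraries was 0.127% for Snora41 in Eef1b2, 0.745% for Snora28 in Eif5, 1.10% for Snora9 in Snhg15, 2.40% for Snora73b in Rcc1, 2.85% for Snora65 in Rpl12 and 5.11% for Snora78 in Snhg9. Snord7 was the exception, with 8.82% to 31.0% (median 19.5%) of the counts of AA465934. Across 16 libraries log2 CPM of Snord7 and AA465934 had r = 0.75, and the 8 other pairs had r of -0.13 to 0.41. These are descriptions, in which the points share depth and low counts.

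In palbociclib averaged over rapamycin, small RNA and host had log2 fold changes of the same sign in 4 of 7 pairs on the same strand. Snora73b enters these pairs with both of its hosts, Rcc1 (same sign) and Snhg3 (opposite sign). Snord7 and AA465934 had -0.85 ± 0.56 and -0.45 ± 0.37, and Snora28 and Eif5 had 0.54 ± 0.47 and -0.17 ± 0.13, as log2 fold changes with SE. Within the Snhg hosts and Gas5, small RNAs with such symbols held 0% to 4.67% of the host's counts, the most in Snhg9 and then Snhg3 (3.03%). The 4 genes named Snord that lie in Gas5 held 61 counts in all, 0.0578% of the 105598 counts of Gas5, and the 17 Snord116-like genes within Snhg14 held 0. Gas5 also holds snoRNA genes with other names, such as Gm26224 (40 counts) and Gm23212 (29 counts), which are not in that sum.

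Rapamycin alone moved none of the 25 genes past the test. Against vehicle, 20 of 25 had a negative log2 fold change, compared with 51% of all genes tested, and 0 of 25 reached an unadjusted p under 0.05, compared with 7.53% of all genes (1 gene, or 0.00653%, was called, and it is not among the 28). The 20 comprised all 12 small RNAs tested and 8 of the 13 hosts. Snhg15 had the smallest p, with 58.1, 56.0, 58.0 and 55.4 CPM with rapamycin and 98.7, 63.7, 48.9 and 98.5 CPM with vehicle (-0.44 ± 0.21, adjusted p = 0.676, edgeR). The rapamycin values were close together and lay inside the vehicle range. The interaction of both drugs had its smallest p in the same gene, 0.67 ± 0.30 (adjusted p = 0.874), where Snhg15 had 69.4, 78.5, 50.2 and 58.1 CPM with both drugs and 50.1, 65.4, 48.5 and 54.7 CPM with palbociclib. Of the 25 genes 0 were called for the interaction, compared with 0.0196% of all genes. Adding rapamycin to palbociclib called 0 genes in all at adjusted p of 0.05, with 430 at an unadjusted p under 0.05, 21 in DESeq2 and 0 in limma-voom.

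The proteins that bind these RNAs showed no called change in any comparison with vehicle. In palbociclib averaged over rapamycin, none of the 9 lists below had a gene called. The 4 C/D proteins all had positive log2 fold changes (median 0.19), and of the 4 H/ACA proteins 2 were positive (median -0.01). Assembly and Cajal body factors had 10 of 12 positive (median 0.17), telomerase factors 5 of 7 (median 0.23), nuclear exosome genes 10 of 13 (median 0.13), RNA polymerase III and its factors 15 of 27 (median 0.02) and RNase P and MRP proteins 5 of 10 (median -0.04). The 7SK particle and P-TEFb had 2 of 11 positive (median -0.10) and the nonsense-mediated decay factors 2 of 10 (median -0.28), against a median of -0.02 over all genes. Of all genes tested, 51.7% were negative in this comparison. The lists are not separate: telomerase factors share Naf1 and Wrap53 with the assembly factors and Dkc1 with the H/ACA proteins.

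Single genes of these lists are given by their smallest p against vehicle. Nolc1, a nucleolar chaperone of snoRNPs, had 129.9, 141.8, 137.2 and 141.6 CPM with both drugs and 88.8, 109.6, 54.4 and 121.8 CPM with vehicle, without overlap (0.56 ± 0.20, adjusted p = 0.337). Of all genes tested, 3.38% had both-drug libraries entirely above vehicle. Smg9, a regulator of the decay kinase SMG1, had 17.2 to 23.2 CPM with both drugs against 21.7 to 48.9 CPM with vehicle (-0.83 ± 0.28, adjusted p = 0.311). Pop4, a protein of RNase P, had 58.3 to 73.0 CPM with both drugs against 31.3 to 54.8 CPM with vehicle (0.69 ± 0.20, adjusted p = 0.267). Brf2, a factor of the promoter type that 7SK uses, had 9.17 to 13.8 CPM with palbociclib against 15.1 to 22.2 CPM with vehicle (-0.72 ± 0.28, adjusted p = 0.436). Dkc1, the pseudouridine synthase, had 80.3 to 138.5 CPM with palbociclib against 54.9 to 86.7 CPM with vehicle (0.72 ± 0.21, adjusted p = 0.328). Nop58 had 0.53 ± 0.24 in that comparison (adjusted p = 0.502). With rapamycin over vehicle, the P-TEFb cyclin Ccnt2 had 0.57 ± 0.19 (adjusted p = 0.543) and the exosome subunit Exosc4 had -0.62 ± 0.16 (adjusted p = 0.459). All are log2 fold changes with SE from edgeR, and none passed the test.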

How the data were processed

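RNA of 16 sorted HSC libraries was measured by RNA-seq. The deposited files hold expected counts per gene and log2(TPM + 1) per gene. Per the submitters' processing notes, STAR 2.5.3a, RSEM 1.3.0 and SAMtools 1.3 were used with mm10; which step each served, and its options, is not stated. The expected counts the authors deposited were whole numbers already, so rounding changed 0 values. TPM was taken from the log2 values the authors deposited.

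Symbols and sequences came from GENCODE M21. Counts were filtered with filterByExpr (minimum count 10, total 15), scaled by TMM and fitted with edgeR 4.0.16 (quasi-likelihood F test, R 4.3.3) over all 16 libraries, leaving 12 residual degrees of freedom, with no block. P-values were adjusted by Benjamini-Hochberg over 15308 genes, with a threshold of 0.05. CPM in the text is the TMM-scaled count. Intervals are 95% and SE is that of the log2 fold change. Correlations used 100000 permutations, two-sided. limma 3.58.1, DESeq2 1.42.0, other scalings and filters, covariates and leaving out each library were alternatives. The scripts were tested on simulated data.

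The members and gene lists were chosen with earlier results of these data known. Genes named are Rn7sk, Rmrp, Rpph1, Terc and Gas5, the 5 highest of each class, the 3 smallest p per direction and comparison, their hosts, and 1 gene of each list. Within groups no library pair was close enough to be a duplicate (lowest chi-square per degree of freedom 24.1). A few items are not reported here.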

Additional observations from a re-analysis of the deposited data

Results flagged for a closer look

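Within each group of 4 libraries, the highest and lowest CPM of each of the 28 genes was compared with its nearest neighbour. Of 112 such groups 8 had a library standing apart, and chance gives about 5.6 (1 in 20).

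Rn7sk in vehicle 3 was the lowest of its group, at 8.43 CPM, with the other vehicle libraries at 16.4 to 17.9 CPM. Rpph1 in the same library was the highest of its group, at 2.33 CPM, and so was Snora73b, at 3.05 CPM. Vehicle 3 is among the libraries with the lowest correlation with the others. Leaving it out gave a log2 fold change of -1.51 for Rn7sk with over without palbociclib (adjusted p = 0.0147, edgeR).

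The other flagged values were those of low genes, apart from Snhg6. Snhg18 in palbociclib plus rapamycin 4 was lowest, at 0.182 CPM. Snhg6 in rapamycin 1 was lowest, at 19.2 CPM. Snora41 in vehicle 2 was highest, at 1.299 CPM, Snora9 in rapamycin 4 at 0.948 CPM, and Snord55 in vehicle 4 at 2.20 CPM.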

How the results depend on the processing

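The size of the Rn7sk change held under every setting run, while the number of genes called moved widely; the cause was not tested. DESeq2 called 112 genes for palbociclib over vehicle, 86 for rapamycin over vehicle, 184 for both drugs over vehicle, 21 for both over palbociclib, 168 for both over rapamycin, 475 for palbociclib and 42 for rapamycin averaged over the other drug, and 39 for the interaction. The edgeR counts were 0, 1, 0, 0, 7, 49, 0 and 3 in that order. Of the small RNAs and hosts DESeq2 called 1 for both drugs over vehicle, 1 for both over rapamycin (Rn7sk each time) and 3 for palbociclib averaged over rapamycin (Rn7sk, Snhg1 and Snhg6). For palbociclib averaged over rapamycin limma-voom called 18 genes and 0 of the members, and limma on log2 TPM called 18 genes with a pseudocount of 1 and 18 with 0.1. For both drugs over rapamycin limma on log2 TPM called 13 and 12 genes, 1 of them a member each time. No filter gave 12 genes there and 1 for both drugs over palbociclib, and only the groups compared gave 71 there. For rapamycin over vehicle, limma with a pseudocount of 1 and the fit of only the groups compared called 0. For the interaction, limma-voom and both limma fits called 0.

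With neutrophil and B cell shares as covariates the counts were 2 for rapamycin over vehicle, 1 for both drugs over vehicle, 76 for palbociclib and 1 for rapamycin averaged, and 0 for the interaction. Without vehicle 3, vehicle 4 and rapamycin 3, a setting added after the data were seen, they were 1 for palbociclib over vehicle, 5 for rapamycin over vehicle, 1 for both drugs over vehicle, 21 for palbociclib averaged and 9 for the interaction. Leaving out 1 library at a time gave 9 to 85 genes for palbociclib averaged over rapamycin (members 0 to 1), 0 to 6 for the interaction, 0 to 1 for palbociclib over vehicle, 0 to 1 for both drugs over palbociclib, 0 to 21 for both over rapamycin and 0 to 3 for rapamycin over vehicle.

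The values do not settle whether the replicate numbers pair the libraries. Deviations of same-numbered libraries correlated at -0.21 to 0.348 over 24 pairs, 7 of them over 0.1. The highest were palbociclib 2 and 3 with palbociclib plus rapamycin 2 and 3 (0.348 and 0.285). Of 16 libraries, 8 correlated best with their own number, out of 4 numbers. With the number as a replicate block, 1 gene was called for palbociclib over vehicle, 11 for both drugs over rapamycin, 1 for rapamycin averaged and 0 for the interaction, and Rn7sk had -1.42 (adjusted p = 0.0447).

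The members' share was 0.268% of TPM, against 0.103% of counts. As deviations from group means, the correlations turned to -0.51 for Rn7sk with Rpph1 and 0.0041 for Rpph1 with Terc. Log2 fold changes near 0 changed sign. Snora28 for palbociclib over vehicle was -0.025 with covariates, -0.0092 without the 3 libraries and -0.21 to 0.30 without single ones. Snora65 there was -0.14 in limma-voom, -0.019 and -0.70 in limma on TPM, and -0.16 to 0.67 without single libraries. Gas5 for rapamycin over vehicle was -0.20 with covariates, -0.12 without the 3 libraries and -0.13 to 0.17 without single ones. Snhg14 there was -0.24 and -0.38 in limma on TPM and -0.60 with covariates, and Snhg3 was -0.0076 with covariates. Gas5 for both drugs over vehicle was 0.0724 and 0.0725 in limma on TPM and -0.21 to 0.0898 without single libraries. Gas5 for both drugs over rapamycin was 0.029 with covariates and -0.17 to 0.0050 without single ones. For rapamycin averaged over palbociclib, Gas5 was -0.052 with covariates and Snhg14 -0.15 and -0.26 in limma on TPM. Low counts limit the Snord, Snora and Scarna genes most.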

Other observations

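Genes annotated as miRNA, of which 2207 lie outside the 28 genes, summed to 153.3 to 180.3 CPM with both drugs, 121.3 to 183.1 CPM with palbociclib, 174.2 to 213.2 CPM with rapamycin and 204.1 to 215.5 CPM with vehicle. Both drugs and palbociclib alone lay below vehicle without overlap, and the other groups overlapped. Of single genes tested, 2.18% lay so for both drugs and 2.21% for palbociclib. Such sums were also taken for snoRNA, scaRNA, snRNA, ribozyme and misc_RNA genes. No test was run on these sums.

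The 561 genes annotated as misc_RNA outside the 28 summed to 35.1 to 53.2 CPM with both drugs, 31.85 to 74.6 CPM with palbociclib, 12.05 to 128.7 CPM with rapamycin and 17.1 to 98.4 CPM with vehicle. All groups overlapped.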
